A study of Mus musculus with 4 samples.

Results

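Imprinted genes are transcribed mainly from the allele inherited from 1 parent. This report describes 39 of them, named by symbol, in sorted spiny projection neurons of the mouse striatum. By Ensembl identifier, 34 of the 39 were matched in a count table of 37620 genes; Rian, Mirg, Snrpn, Kcnq1ot1 and Peg13 were not matched through the symbols used here, may stand among the identifiers without a symbol, and are not analysed here. The 39 genes fall into 18 imprinted loci, with 13 genes on chromosome 7, 6 on chromosome 12 and 6 on chromosome 6. The series has 4 RNA-seq libraries. The D2 Q175 library came from indirect-pathway neurons of heterozygous zQ175 knock-in mice, a model of Huntington's disease with a lengthened CAG repeat in the endogenous huntingtin gene Htt, and the D2 WT library from the same neurons of wild-type littermates. The D1 Q175 and D1 WT libraries came from direct-pathway neurons of heterozygous zQ175 mice and of wild-type littermates. All animals were males aged 5 to 6 months on a C57BL/6J background, and all carried an EGFP transgene, driven by a Drd2 BAC in the D2 groups and by a Drd1 BAC in the D1 groups. Neurons were sorted on EGFP, and each library was 1 pool of 4 animals with 150000 cells per animal. Each group therefore held 1 library, and D2 and D1 neurons came from different mice, so reporter line, pool, sort and cell type cannot be told apart.

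In an imprinted gene, DNA methylation laid down in the egg or the sperm marks an imprinting control region, and the mark decides which parental copy is transcribed. Imprinted genes lie in clusters that often pair a gene read from the paternal copy with one read from the maternal copy, and several clusters hold a long noncoding RNA. Many are strongly expressed in the brain, where they are known for roles in growth, feeding, sleep and behaviour. Chromosome 7 holds several clusters, and loss of the human counterpart of the Snrpn and Ube3a cluster causes Prader-Willi or Angelman syndrome. The expressed allele is given here as background, since total RNA counts from C57BL/6J animals hold no information on alleles.

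Total counts were between 39444117 and 42787068 per library. Levels are given as CPM, counts scaled to library size with edgeR's trimmed mean of M values, so that 1 CPM stood for 38.5 to 43.6 counts, and levels of different genes are compared only in the deposited FPKM, which is scaled to transcript length. The sort was visible in Drd2, the dopamine receptor gene of indirect-pathway neurons, at 1442 CPM in D2 Q175, 2078 CPM in D2 WT, 3.37 CPM in D1 Q175 and 8.52 CPM in D1 WT. Drd1, the receptor gene of direct-pathway neurons, stood at 18.2 CPM in D2 Q175, 33.1 CPM in D2 WT, 771 CPM in D1 Q175 and 1292 CPM in D1 WT. Htt stood at 121 CPM in D2 Q175 and 154 CPM in D2 WT, and at 116 CPM in D1 Q175 and 158 CPM in D1 WT; transcription of a knock-in allele continues, and the labels of genotype are not checked by this level. Mitochondrially encoded transcripts took 11.06% of counts in D2 Q175, 6.49% in D2 WT, 8.98% in D1 Q175 and 6.06% in D1 WT. Other cell types left measurable signal, and the summed glial markers were higher in each Q175 library than in the WT library of the same cell type. The summed level of 10 oligodendrocyte markers was 525 CPM in D2 Q175 and 399 CPM in D2 WT, with 440 CPM in D1 Q175 and 364 CPM in D1 WT. For 10 astrocyte markers the sums were 259 and 201 CPM in D2 Q175 and D2 WT, and 187 and 167 CPM in D1 Q175 and D1 WT. For 10 microglia markers they were 48.4 and 38.9 CPM in D2 Q175 and D2 WT, and 40.8 and 31.4 CPM in D1 Q175 and D1 WT. The summed level of 10 interneuron markers was higher in D2 Q175 than in D2 WT (8.56 CPM), but stood at 11.6 CPM in D1 Q175 and 14.6 CPM in D1 WT. No marker of these lists was at 0 in every library.

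Promoter sequence is shown for the loci the results turn on, from RefSeq on build GRCm38.p6. The first is the stretch between the annotated starts of Peg3 and Usp29, which are transcribed in opposite directions and whose shared start region is known as the imprinting control region of that cluster. It lies at chr7:6730420-6730582, is given on the plus strand, and has its CpG dinucleotides, the sites of DNA methylation, in capitals.
Peg3 to Usp29: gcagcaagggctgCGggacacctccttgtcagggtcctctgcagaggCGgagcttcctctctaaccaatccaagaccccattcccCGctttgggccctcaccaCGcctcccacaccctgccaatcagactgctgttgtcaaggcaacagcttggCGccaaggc
These 163 bases held 5 CpG. The next pair are the 250 bases before the start of Nnat (chr2:157559828-157560077, plus strand) and of Blcap (chr2:157566362-157566611, minus strand), overlapping genes of which Nnat passed the genotype test and Blcap did not. Capitals mark a match to CCATNTT, the core motif of the zinc finger protein YY1.
Nnat: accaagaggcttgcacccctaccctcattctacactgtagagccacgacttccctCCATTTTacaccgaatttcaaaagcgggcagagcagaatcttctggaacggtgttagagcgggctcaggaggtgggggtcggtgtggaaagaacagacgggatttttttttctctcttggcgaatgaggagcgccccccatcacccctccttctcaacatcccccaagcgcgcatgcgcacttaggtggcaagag
Blcap: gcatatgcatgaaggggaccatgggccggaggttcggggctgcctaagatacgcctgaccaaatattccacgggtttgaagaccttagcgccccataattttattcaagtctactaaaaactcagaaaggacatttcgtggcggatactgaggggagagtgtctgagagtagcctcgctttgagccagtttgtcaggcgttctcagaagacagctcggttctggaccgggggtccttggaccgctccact
The Nnat window held 1 match and the Blcap window held 0. The last pair are the 250 bases before Meg3 (chr12:109540746-109540995, plus strand), the most abundant gene of the set, and before Mest (chr6:30737800-30738049, plus strand), which differed between cell types. Capitals mark TGCCGC, or its reverse complement, the core of the site bound by ZFP57, a zinc finger protein that maintains imprints on methylated DNA.
Meg3: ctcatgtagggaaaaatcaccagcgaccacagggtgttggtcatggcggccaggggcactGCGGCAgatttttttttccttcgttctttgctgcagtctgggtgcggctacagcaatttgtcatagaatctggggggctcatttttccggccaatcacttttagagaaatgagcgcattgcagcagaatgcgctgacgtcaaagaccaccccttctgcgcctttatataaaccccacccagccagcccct
Mest: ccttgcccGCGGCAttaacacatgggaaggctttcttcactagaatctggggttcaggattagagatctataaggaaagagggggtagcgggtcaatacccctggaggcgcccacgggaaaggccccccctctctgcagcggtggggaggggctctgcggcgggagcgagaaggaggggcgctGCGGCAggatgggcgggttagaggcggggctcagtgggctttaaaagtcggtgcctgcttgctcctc
The Meg3 window held 1 match and the Mest window held 2. Both motifs were searched on both strands in the 250 bases before each start. The table gave 45 windows for 30 of the named genes, among 32851 windows in all. TGCCGC was in 7 of the 45 windows (15.6%), those of Copg2, Meg3, Mest, Nap1l5, Plagl1 and Zim1, against 8.68% of all windows. Windows of 1 gene can overlap, as for the Mest starts at 30738050 and 30738053, so the same matches were counted more than once. By gene, TGCCGC was in 6 of 30, against 2660 of 27025. CCATNTT was in 6 (13.3%), against 12.4% of all windows. The median window of the imprinted genes held 10 CpG and 56.8% G and C, against 6 CpG and 52.4% over all windows. A match describes the letters in the window and shows neither binding nor a cause.

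Most matched imprinted genes were detected in these neurons. At least 1 FPKM was reached by 23 of the 34 matched genes (67.6%) in each Q175 library and by 24 (70.6%) in each WT library. Of all genes in the table, 33.1% reached it in each Q175 library, 32.5% in D2 WT and 32.4% in D1 WT. The sets are unlike, since the table holds microRNA and other noncoding genes while most matched imprinted genes are protein coding. The imprinted genes were also chosen with earlier results of these data known. Meg3, a long noncoding RNA read from the maternal copy, stood far above the rest, at 3584 FPKM in D2 Q175, 3321 in D2 WT, 2874 in D1 Q175 and 2272 in D1 WT. It ranked 12th among all genes by FPKM in D2 Q175, D2 WT and D1 Q175 and 13th in D1 WT, and it took between 0.729% (D1 WT) and 1.088% (D2 Q175) of all counts. All matched imprinted genes together took 1.34% of counts in D2 Q175, 1.203% in D2 WT, 1.206% in D1 Q175 and 0.979% in D1 WT; without Meg3 the shares were 0.252% in D2 Q175, 0.274% in D2 WT, 0.237% in D1 Q175 and 0.249% in D1 WT.

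Next in mean FPKM over the 4 libraries were Inpp5f and Nap1l5. Inpp5f, a phosphoinositide phosphatase gene with imprinted and unimprinted isoforms, stood at 94.7 FPKM in D2 Q175, 102 in D2 WT, 92.4 in D1 Q175 and 89.4 in D1 WT. Nap1l5, a gene of the nucleosome assembly protein family that lies inside Herc3, stood at 92.1 FPKM in D2 Q175, 81.3 in D2 WT, 78.0 in D1 Q175 and 73.1 in D1 WT. Ppp1r9a and Commd1 completed the 5 highest by mean FPKM, at between 56.4 and 78.9 FPKM, and Ppp1r9a was above Nap1l5 in D1 WT. Within D2 neurons Gnas was higher in this order, above Inpp5f in D2 Q175 and above Nap1l5 in D2 WT, at 117 FPKM in D2 Q175 and 82.9 in D2 WT, against 12.2 FPKM in D1 Q175 and 6.59 in D1 WT.

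At the other end, 6 matched genes were too low to be tested, with at most 16 counts in any library. H19, the maternal noncoding RNA beside Igf2, had 0 counts in all 4 libraries. Since 3 counts is the limit that a count of 0 allows, this bounds H19 at 0.0689 CPM in D2 Q175, 0.0755 in D2 WT, 0.0718 in D1 Q175 and 0.0780 in D1 WT, for counting error only. Igf2, the fetal growth factor gene, had 9 counts in D2 Q175, 8 in D2 WT, 7 in D1 Q175 and 11 in D1 WT. Mkrn3, a makorin ring finger gene of the Prader-Willi cluster, had 6 counts in D2 Q175, 16 in D2 WT, 0 in D1 Q175 and 4 in D1 WT. Cdkn1c (a cyclin-dependent kinase inhibitor), Kcnk9 (a potassium channel) and Dio3 (the deiodinase that inactivates thyroid hormone) had between 0 and 11 counts. The 28 remaining genes passed the filter on low counts.

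**Figure D1:**
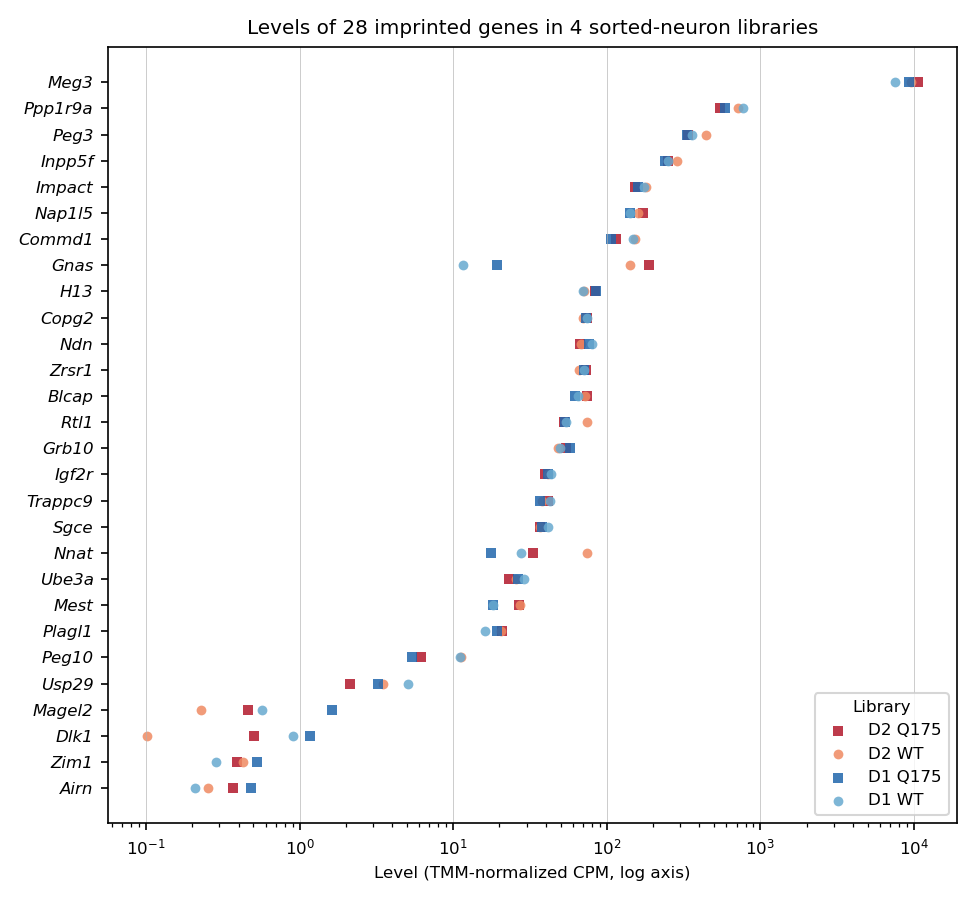
Level of the 28 tested imprinted genes in each library, as TMM-normalized CPM on a log axis, ordered by mean level. Meg3 stands between 7476 and 10686 CPM, and for Gnas both D2 points lie to the right of both D1 points.

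The main question of the design is what heterozygous zQ175 changes in each neuron type. The edgeR quasi-likelihood test was fitted to all 15668 genes that passed the filter, with additive terms for genotype and cell type, and with Benjamini-Hochberg adjustment at 0.05. The pair of cell types serve as the 2 observations of the genotype effect, which leaves 1 residual degree of freedom. Of the 28 imprinted genes, 10 passed (35.7%), while 27.8% of all genes tested passed. Higher in Q175 were 3 (Gnas, H13 and Magel2) and lower 7 (Nnat, Peg10, Commd1, Ppp1r9a, Usp29, Peg3 and Rtl1), beside 13.8% of all genes higher and 14.0% lower. The median log2 difference was -0.02 over the imprinted genes and 0 over all genes. Both ratios were positive for 9 of the 28 genes and both negative for 12. The same was not counted over all genes, so no lean in either direction is read from these counts. Of all genes called, 49.6% were higher in Q175; this share was 67.3% when libraries were scaled by their totals, 68.7% and 68.6% in limma on log2 FPKM with 0.1 or 1 added, and 37.7% in DESeq2. No batch is named in the labels, and one common to the Q175 libraries would be read as an effect of genotype. Without the cell type term in edgeR no imprinted gene passed (4 of 28 had an unadjusted p under 0.05), and 2 genes of the whole table were higher and 2 lower. In pooled RNA, fewer cells of a type and less RNA per cell cannot be told apart.

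Genes were split by the allele listed for each as background, and whether 1 allele was expressed in these neurons was not tested. Among 15 paternally expressed genes 6 passed (40.0%), 1 higher and 5 lower in Q175, with a median log2 difference of -0.04. Of all genes 27.8% were called, 13.8% higher and 14.0% lower. Among these 6, the calls of Peg3 and Rtl1 ended in every alternative, and those of Usp29 and Magel2 ended in DESeq2. Nnat and Peg10 lost theirs only without the cell type term. Of 10 maternally expressed genes 3 passed (30.0%), a share near that of all genes, 1 higher and 2 lower, with a median of -0.02. Of the 3 genes whose expressed allele depends on the isoform, Gnas passed and was higher, while Grb10 (0.19 ± 0.08, SE; adjusted p = 0.106 in edgeR) and Inpp5f (-0.12 ± 0.08; adjusted p = 0.308) did not pass. Summed over genes, paternally expressed genes stood at 981 CPM in D2 Q175 and 1164 CPM in D2 WT, and at 941 CPM in D1 Q175 and 1001 CPM in D1 WT. Maternally expressed genes, of which Meg3 is the bulk, stood at 11685 and 10771 CPM in D2 Q175 and D2 WT, and at 10355 and 8717 CPM in D1 Q175 and D1 WT. Without Meg3, which did not pass, the sum of the other 12 maternally expressed genes ran the other way. It stood at 998 CPM in D2 Q175 and 1185 CPM in D2 WT. In D1 neurons it was 1020 CPM in Q175 and 1241 CPM in WT. Ppp1r9a, whose expressed allele in these neurons was not tested, was most of that sum, at 546 CPM in D2 Q175 and 714 CPM in D2 WT. In D1 neurons Ppp1r9a had 587 CPM in Q175 and 770 CPM in WT. The rest were mixed, with Commd1 lower and H13 higher in Q175 in both cell types.

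Beside these genotype differences, some markers of other cell types and most genes of spiny neuron identity passed the genotype test as well. Of all genes tested, 13.8% were higher in Q175 and 14.0% lower. Of the markers tested, 7 of 9 oligodendrocyte, 4 of 10 astrocyte and 2 of 10 microglia markers were higher in Q175. None of them was lower, and the microglia count was not far above the share of all genes. The part of these markers in the imprinted genes' results was not tested. Of 8 vascular, meningeal and choroid plexus markers tested Col1a1 alone was higher, which is near the share of all genes. Of 8 interneuron markers Th and Cck were higher, with none lower in either list. Of 15 genes of spiny neuron identity, 14 were lower in Q175 and none was higher. Their summed level was 16991 CPM in D2 Q175 and 29067 CPM in D2 WT, with 11812 CPM in D1 Q175 and 18663 CPM in D1 WT.

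**Figure D2:**
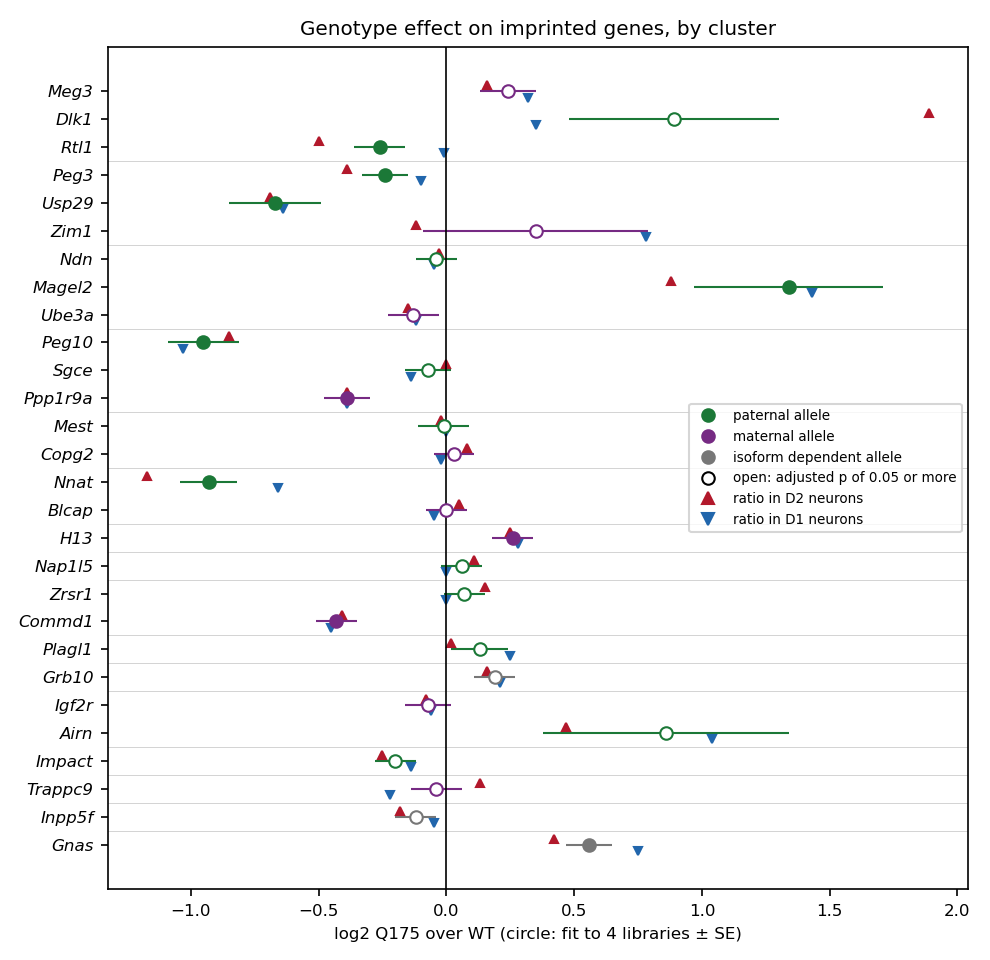
Log2 difference of Q175 over WT for the 28 tested imprinted genes, grouped by locus, with the fit to all 4 libraries (circles, bars show SE) and the ratio in D2 neurons and in D1 neurons (triangles). Filled circles passed the test: Nnat and Peg10 lie near -0.9, and Magel2 and Gnas lie above 0.5. Among neighbours of a called gene that did not pass, Blcap, Sgce, Zrsr1, Ndn and Ube3a lie near 0. Meg3 (0.24), Zim1 (0.35) and Dlk1 (0.89) lie above it.

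At the Nnat locus, 1 gene of the overlapping pair passed, and the difference between the pair was not tested. Nnat (ENSMUSG00000067786), which encodes neuronatin, a small membrane protein of the endoplasmic reticulum, is read from the paternal copy inside an intron of Blcap. It had 33.1 CPM in D2 Q175 and 74.2 CPM in D2 WT, with 17.5 CPM in D1 Q175 and 27.7 CPM in D1 WT. Each Q175 library was below its WT partner, and the D1 WT level was itself below that of D2 Q175. The log2 ratio was -1.17 in D2 neurons (95% counting interval -1.26 to -1.08) and -0.66 in D1 neurons (-0.80 to -0.52), and Nnat fell by 0.93 ± 0.11 log2 units (SE) in the edgeR fit (adjusted p = 5.19e-07; lower in both cell types). Blcap (ENSMUSG00000067787), which encodes bladder cancer associated protein, had 74.8 CPM in D2 Q175 and 72.1 CPM in D2 WT, with 62.4 CPM in D1 Q175 and 64.7 CPM in D1 WT. These levels overlapped between genotypes, and the fitted difference was 0 ± 0.08 (adjusted p = 0.995 in edgeR). Nnat was the only tested imprinted gene at or above 5 CPM that was at least 2-fold apart between genotypes in D2 neurons (1 of 23 genes, 4.35%), where 2.46% of all genes were. Its genotype effect was 0.51 log2 units more negative in D2 than in D1 neurons; 3.95% of all genes differed by at least 0.5 in either direction, and this difference could not be tested.

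Of the Peg10 cluster on chromosome 6, Peg10 and Ppp1r9a passed and were lower in Q175, while Sgce did not pass. Peg10 (ENSMUSG00000092035), a paternally expressed gene derived from a retrotransposon, had 6.20 CPM in D2 Q175 and 11.2 CPM in D2 WT, with 5.38 CPM in D1 Q175 and 11.1 CPM in D1 WT. Both Q175 levels lay below both WT levels, and Peg10 fell by 0.95 ± 0.14 log2 units (adjusted p = 1.23e-05 in edgeR). Between genotypes in D1 neurons it was the only imprinted gene at least 2-fold apart (log2 ratio -1.03, -1.28 to -0.80; 1 of 24 genes, 4.17%), where 1.82% of all genes were. At a limit of 1.5-fold, 4 of 24 genes were apart in D1 neurons (Peg10, Nnat, Usp29 and Gnas; 16.7%), beside 7.7% of all genes, and 2 of 23 in D2 neurons (Nnat and Peg10; 8.7%), beside 9.51% of all genes. The 2-fold ratio of Peg10 in D1 neurons was at the edge of the threshold, and no imprinted gene reached it after scaling by library totals or in FPKM. Sgce, which encodes epsilon-sarcoglycan and is mutated in human myoclonus-dystonia, starts 99 bases from Peg10 on the opposite strand in the GENCODE M21 annotation and is also paternally expressed. It had 36.9 CPM in D2 Q175 and 36.8 CPM in D2 WT, with 37.6 CPM in D1 Q175 and 41.4 CPM in D1 WT, with a fitted difference of -0.07 ± 0.09 (adjusted p = 0.629 in edgeR). So 1 gene of the divergent pair passed the test and the other did not; the difference between them was not tested.

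Further along the same locus, Ppp1r9a (ENSMUSG00000032827) encodes neurabin, which binds actin and holds protein phosphatase 1 in dendritic spines. It had 546 CPM in D2 Q175 and 714 CPM in D2 WT, with 587 CPM in D1 Q175 and 770 CPM in D1 WT. The log2 ratio was -0.39 in both cell types, and Ppp1r9a fell by 0.39 ± 0.09 log2 units (adjusted p = 0.00178 in edgeR). Its paralog Ppp1r9b, which encodes spinophilin and lies outside the imprinted clusters, had 323 CPM in D2 Q175 and 393 CPM in D2 WT, with 332 CPM in D1 Q175 and 445 CPM in D1 WT. Ppp1r9b fell by 0.35 ± 0.09 log2 units (adjusted p = 0.00342 in edgeR).

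At the Peg3 locus both paternally expressed genes of the stretch printed above were lower in Q175. Peg3 (ENSMUSG00000002265), which encodes a zinc finger transcription factor, had 338 CPM in D2 Q175 and 441 CPM in D2 WT, with 332 CPM in D1 Q175 and 356 CPM in D1 WT. Most of the gap was in D2 neurons, where the log2 ratio was -0.39 (-0.42 to -0.35), against -0.10 (-0.14 to -0.07) in D1 neurons. Peg3 fell by 0.24 ± 0.09 log2 units in the fit (adjusted p = 0.0449 in edgeR), a call that every alternative ended, with adjusted p-values between 0.051 and 0.368. Usp29 (ENSMUSG00000051527), a ubiquitin-specific protease gene whose start is 147 bases from that of Peg3 in GENCODE M21, had 2.13 CPM in D2 Q175 and 3.48 CPM in D2 WT, with 3.25 CPM in D1 Q175 and 5.09 CPM in D1 WT. The ratios were close, at -0.69 (-1.10 to -0.31) in D2 and -0.64 (-0.97 to -0.32) in D1 neurons, and Usp29 fell by 0.67 ± 0.18 log2 units (adjusted p = 0.00809 in edgeR; 0.202 in DESeq2 and 0.0602 in limma with 0.1 added to FPKM). Zim1, the maternally expressed zinc finger gene of the locus, had 17, 17, 22 and 11 counts in D2 Q175, D2 WT, D1 Q175 and D1 WT and did not pass (adjusted p = 0.587).

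**Figure D3:**
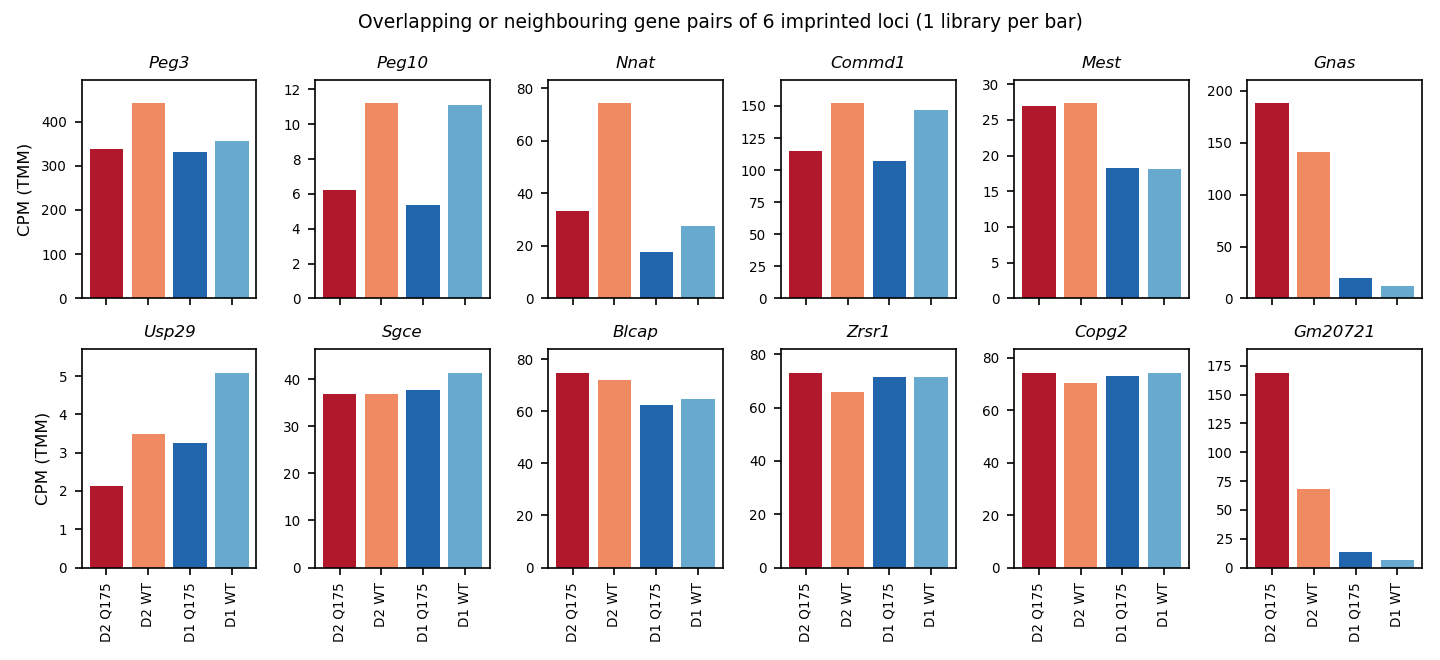
TMM-normalized CPM of 6 pairs of overlapping or neighbouring genes, 1 library per bar, with the upper and lower panel of a column showing the same locus on separate linear axes. In the Peg10, Nnat and Commd1 columns the upper gene is lower in both Q175 libraries while the lower panel shows little difference between genotypes.

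At the Commd1 locus, Commd1 passed and its antisense neighbour Zrsr1 did not. Commd1 (ENSMUSG00000051355), read from the maternal copy, encodes a COMM-domain protein of copper handling and endosomal sorting. It had 115 CPM in D2 Q175 and 152 CPM in D2 WT, with 107 CPM in D1 Q175 and 147 CPM in D1 WT, with both Q175 levels below both WT levels. Commd1 fell by 0.43 ± 0.08 log2 units (adjusted p = 0.000243 in edgeR). In deposited FPKM the gap was smaller, 57.8 against 66.8 in D2 Q175 and D2 WT and 56.4 against 66.6 in D1 Q175 and D1 WT, and limma on log2 FPKM gave -0.22 with adjusted p = 0.0546 (0.1 added) and 0.0612 (1 added). Zrsr1, a paternally expressed splicing factor gene that lies in an intron of Commd1 on the other strand, had 73.1 CPM in D2 Q175 and 65.9 CPM in D2 WT, with 71.3 CPM in D1 Q175 and 71.4 CPM in D1 WT (fitted difference 0.07 ± 0.08, adjusted p = 0.539 in edgeR).

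In the Dlk1-Dio3 cluster on chromosome 12, Rtl1 alone passed. Meg3 (ENSMUSG00000021268) had 10686 CPM in D2 Q175 and 9586 CPM in D2 WT, with 9335 CPM in D1 Q175 and 7476 CPM in D1 WT. Each Q175 library was above its WT partner, but D1 Q175 was below D2 WT, and the fitted difference of 0.24 ± 0.11 did not pass (adjusted p = 0.108 in edgeR; it passed in DESeq2 with 0.0471). Rtl1 (ENSMUSG00000085925), a retrotransposon-derived gene read from the paternal copy, had 52.8 CPM in D2 Q175 and 74.8 CPM in D2 WT, with 53.8 CPM in D1 Q175 and 54.3 CPM in D1 WT. Only D2 WT stood apart from the other 3 libraries. Rtl1 fell by 0.26 ± 0.10 log2 units in the fit (adjusted p = 0.0479 in edgeR), although its log2 ratio was -0.01 (-0.10 to 0.07) in D1 neurons, and every alternative ended the call (adjusted p between 0.0604 and 0.41). Of 6 microRNA genes annotated antisense to Rtl1, 5 were in the table, all at 0 counts in all 4 libraries. The libraries were read as 50 nt pairs, and such counts do not show whether the mature microRNAs were present. Dlk1, which encodes a transmembrane protein of the Notch ligand type, had 22 counts in D2 Q175 and 4 in D2 WT, and 49 counts in D1 Q175 and 35 in D1 WT. Its fitted difference was 0.89 ± 0.41 and did not pass (adjusted p = 0.11 in edgeR).

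The genes called higher in Q175 lay at separate loci. Gnas (ENSMUSG00000027523) encodes Gs-alpha, the G protein subunit that stimulates adenylyl cyclase, along with imprinted longer and noncoding transcripts. It had 188 CPM in D2 Q175 and 141 CPM in D2 WT, with 19.4 CPM in D1 Q175 and 11.5 CPM in D1 WT. The log2 ratio was 0.42 (0.37 to 0.47) in D2 and 0.75 (0.59 to 0.93) in D1 neurons, and Gnas rose by 0.56 ± 0.09 log2 units (adjusted p = 7.16e-05 in edgeR). Gm20721, annotated antisense to Gnas and named here after its values were seen, had 169 CPM in D2 Q175 and 67.7 CPM in D2 WT, with 13.7 CPM in D1 Q175 and 6.34 CPM in D1 WT. It followed the same order of libraries and rose by 1.24 ± 0.09 log2 units (adjusted p = 1.08e-09 in edgeR). Whether counting used strand is not given in the sources used here, so reads of Gnas and Gm20721 may not be told apart. Their sum was 357 CPM in D2 Q175 and 208 CPM in D2 WT (1.71-fold), and 33.1 CPM in D1 Q175 and 17.8 CPM in D1 WT (1.86-fold). Gnal, which encodes the related subunit that takes the place of Gs-alpha in most striatal neurons, had 1165 CPM in D2 Q175 and 1492 CPM in D2 WT, with 1139 CPM in D1 Q175 and 1518 CPM in D1 WT. Gnal fell by 0.39 ± 0.09 log2 units (adjusted p = 0.00295 in edgeR).

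H13 (ENSMUSG00000019188), read from the maternal copy in its full-length form, encodes signal peptide peptidase, an intramembrane protease. It had 83.6 CPM in D2 Q175 and 70.5 CPM in D2 WT, with 84.7 CPM in D1 Q175 and 69.7 CPM in D1 WT. Both Q175 levels were above both WT levels, and H13 rose by 0.26 ± 0.08 log2 units (adjusted p = 0.0166 in edgeR; 0.0901 in DESeq2 and 0.084 in edgeR without the filter on low counts). Mcts2, the paternally expressed retrogene in an intron of H13, had 9.46 CPM in D2 Q175 and 7.86 CPM in D2 WT, with 9.02 CPM in D1 Q175 and 7.93 CPM in D1 WT, and did not pass (0.23 ± 0.13, adjusted p = 0.214).

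In the Prader-Willi and Angelman cluster on chromosome 7, Magel2 (ENSMUSG00000056972), a gene of the MAGE family involved in endosomal protein recycling, was the lowest gene called. It had 20 counts in D2 Q175 and 9 in D2 WT, and 68 counts in D1 Q175 and 22 in D1 WT, that is 0.459 CPM in D2 Q175, 0.227 in D2 WT, 1.63 in D1 Q175 and 0.572 in D1 WT. The counting interval of its log2 ratio was 0.80 to 2.27 in D1 neurons and included 0 in D2 neurons (-0.18 to 2.34). Magel2 rose by 1.34 ± 0.37 log2 units (adjusted p = 0.00904 in edgeR), but DESeq2 gave an adjusted p of 0.3, limma 0.0726 and 0.14, and edgeR without the filter on low counts 0.0567. Ndn, which encodes the related protein necdin, had 66.4 CPM in D2 Q175 and 67.7 CPM in D2 WT, with 77.1 CPM in D1 Q175 and 80.1 CPM in D1 WT (adjusted p = 0.749 in edgeR). Ube3a, the ubiquitin ligase gene of Angelman syndrome that neurons read from the maternal copy, had 23.0 CPM in D2 Q175 and 25.5 CPM in D2 WT, with 26.5 CPM in D1 Q175 and 28.7 CPM in D1 WT (adjusted p = 0.326 in edgeR).

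The other imprinted genes did not pass the genotype test. In all, 18 tested genes missed the threshold, with fitted log2 differences between -0.20 (Impact, an inhibitor of the kinase GCN2) and 0.89 (Dlk1). The 15 of these with at least 1 CPM in every library lay between -0.20 and 0.24. Among them were Mest (-0.01 ± 0.10), a hydrolase-fold gene, and Copg2 (0.03 ± 0.08), a coat protein gene that overlaps it. The growth-related genes Grb10, an adaptor that restrains insulin signalling, Igf2r (-0.07 ± 0.09), the receptor that clears Igf2, and Plagl1 (0.13 ± 0.11), a zinc finger transcription factor, did not pass, nor did Airn (0.86 ± 0.48), the noncoding RNA antisense to Igf2r, at 16 counts in D2 Q175 and 10 in D2 WT and 20 in D1 Q175 and 8 in D1 WT. A p-value above the threshold does not show that these levels were equal.

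Differences between D2 and D1 neurons were tested in the same fit. Of the 28 imprinted genes, 6 passed (21.4%), while 13.4% of all genes did. Higher in D2 were Gnas, Nnat and Mest, and lower in D2 were Dlk1, Magel2 and Usp29; 6.71% of all genes were higher and 6.71% lower. The median log2 difference was 0 over the imprinted genes and over all genes.

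Gnas had 10.8-fold higher levels in D2 neurons, a difference of 3.44 ± 0.10 log2 units (adjusted p = 5.57e-19 in edgeR). The log2 ratio of D2 over D1 was 3.28 (3.17 to 3.39) in Q175 and 3.61 (3.48 to 3.76) in WT. With Gm20721 added, the ratio was 3.43 in Q175 and 3.55 in WT. Nnat was higher in D2 by 1.18 ± 0.11 log2 units (adjusted p = 9.5e-09), with a log2 ratio of 0.91 (0.78 to 1.04) in Q175 and 1.42 (1.32 to 1.53) in WT. Mest had 27.0 CPM in D2 Q175 and 18.2 CPM in D1 Q175, and 27.3 CPM in D2 WT against 18.1 CPM in D1 WT. It was higher in D2 by 0.58 ± 0.10 log2 units (adjusted p = 0.000194 in edgeR), at nearly the same ratio in both genotypes.

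Among genes at or above 5 CPM, Gnas was the only imprinted gene at least 2-fold apart between cell types in Q175 (1 of 23, 4.35%), where 1.87% of all genes were. In WT both Gnas and Nnat were (2 of 24, 8.33%), where 2.1% of all genes were. At a limit of 1.5-fold, Gnas and Nnat were apart in Q175 (2 of 23, 8.7%), beside 5.1% of all genes, and Gnas, Nnat and Mest in WT (3 of 24, 12.5%), beside 5.63% of all genes.

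The genes lower in D2 were all weakly expressed. Dlk1 had 22 counts in D2 Q175 and 49 in D1 Q175, and 4 counts in D2 WT and 35 in D1 WT, a difference of -1.83 ± 0.42 log2 units (adjusted p = 0.00344 in edgeR; 0.153 in DESeq2). Magel2 was lower by 1.64 ± 0.37 log2 units (adjusted p = 0.0034 in edgeR; 0.288 in DESeq2), and Usp29 by 0.58 ± 0.18 log2 units (adjusted p = 0.0382 in edgeR; 0.476 in DESeq2). Without the filter on low counts these 3 calls also ended in edgeR, with adjusted p-values of 0.116 for Dlk1, 0.0598 for Magel2 and 0.121 for Usp29. Both D2 libraries were below both D1 libraries for Dlk1 and Magel2, while for Usp29 the D1 Q175 level lay below that of D2 WT. The remaining 22 genes lay between -0.23 (Ndn) and 0.28 (Meg3) and did not pass, though Meg3 passed in DESeq2 (adjusted p = 0.036). Some markers of other cell types also differed between D2 and D1, beside 6.71% of all genes higher in D2 and 6.71% lower. Higher in D2 were 5 of 9 oligodendrocyte, 6 of 10 astrocyte and 1 of 10 microglia markers. So was 1 of 8 vascular, meningeal and choroid plexus markers, and none of these lists held a lower one. Of 8 interneuron markers, 2 were higher (Pvalb and Slc5a7) and 2 lower (Npy and Cck). Their part in the imprinted genes' cell type differences was not tested.

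**Figure D4:**
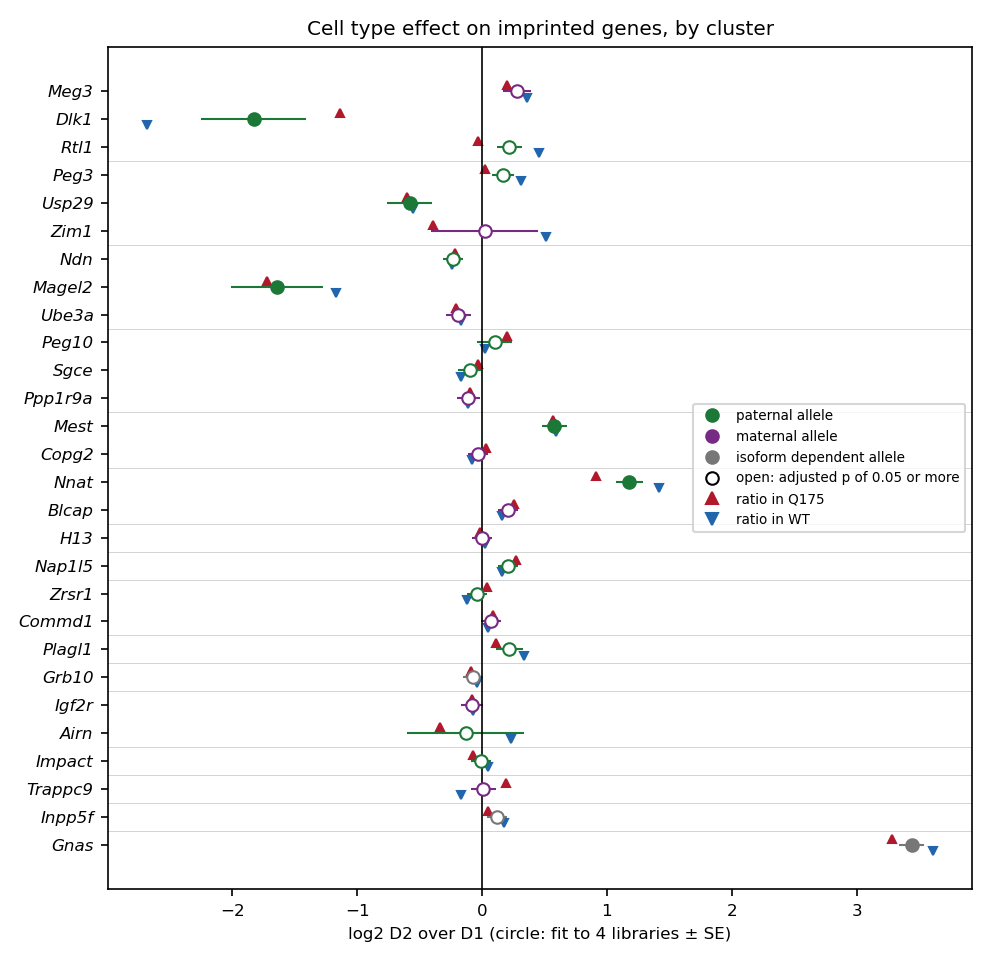
Log2 difference of D2 over D1 for the 28 tested imprinted genes, with the fit to all 4 libraries (circles, bars show SE) and the ratio in Q175 and in WT (triangles). Gnas lies near 3.4 and Nnat near 1.2, Dlk1 and Magel2 lie below -1.5 with wide errors, and most other genes lie within 0.3 of 0.

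Further imprinted genes and the proteins that keep imprints were counted for comparison. Of 44 further imprinted genes listed, 39 were in the table and 25 were tested. Of these, 9 were higher and 3 lower in Q175 (48.0% called, beside 27.8% of all genes), with a median log2 difference of 0.11. Whether the genes of this list are imprinted in these neurons was not tested. Th, 1 of the genes called higher, is also among the interneuron markers. Sfmbt2, a Polycomb-group gene read from the paternal copy in placenta, had 14.2 CPM in D2 Q175 and 3.20 CPM in D2 WT, with 7.32 CPM in D1 Q175 and 0.208 CPM in D1 WT, and rose by 2.88 ± 0.29 log2 units (adjusted p = 7.17e-08 in edgeR). Ddc, the aromatic amino acid decarboxylase gene beside Grb10, rose by 2.20 ± 0.44 log2 units (adjusted p = 0.000603) at 1.68 CPM or less. Cobl, an actin nucleator gene of the same region, fell by 0.45 ± 0.08 (adjusted p = 0.000152), and Begain, a synaptic scaffold gene beside Dlk1, rose by 0.39 ± 0.08 (adjusted p = 0.00103).

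Of 38 regulators of imprints and DNA methylation, 35 were tested, 1 was higher and 4 were lower in Q175 (14.3% called, beside 27.8% of all genes), with a median of -0.06. Zfp445, a zinc finger gene that maintains imprints, had 65.7 CPM in D2 Q175 and 102 CPM in D2 WT, with 87.6 CPM in D1 Q175 and 96.7 CPM in D1 WT, and fell by 0.39 ± 0.09 log2 units (adjusted p = 0.00339 in edgeR). Mbd2, which encodes a methyl-CpG binding protein, fell by 0.31 ± 0.08 (adjusted p = 0.00759), and Uhrf2, a relative of the methylation maintenance factor Uhrf1, fell by 0.27 ± 0.08 (adjusted p = 0.0209). Dnmt3b, a de novo DNA methyltransferase gene, rose by 1.76 ± 0.44 (adjusted p = 0.00372) but stood at only 0.735 CPM in D2 Q175 and 0.201 CPM in D2 WT, with 0.670 CPM in D1 Q175 and 0.208 CPM in D1 WT.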

How the data were processed

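RNA-seq was analysed from 4 libraries of sorted neurons, 1 per group, each read as 50 nt pairs at 4 samples per lane, per the labels and design text. Expected counts, that is estimated counts without normalization, were deposited for each Ensembl gene; 18.7% of values were not whole numbers, and all were rounded. The authors also deposited FPKM, so named in the file title and scaled to transcript length and depth, which was used only for levels between genes and for alternatives. The submitters' processing notes name CASAVA 1.8.2. Aligner, counting program, strand setting, build and annotation were not given in the sources used here. Symbols and overlapping genes came from GENCODE M21 (GRCm38): 32897 of 37620 identifiers had a symbol, 26 of the 34 matched imprinted genes overlap another gene, and 22 an antisense gene, so their counts are uncertain. Counts of 9 of the 34 were not whole within 0.01.

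In R 4.3.3, edgeR 4.0.16 was fitted (glmQLFit, two-sided, TMM, filterByExpr) to all 4 libraries with terms for genotype and cell type; the common biological coefficient of variation was 6.8%. Between 2 libraries, log2 ratios of CPM used a prior count of 2, with 95% exact conditional binomial intervals that cover counting error only, and no p-value. Such ratios were counted where either library had at least 5 CPM. At 3 counts, the limit of a count of 0, levels were 0.0689 to 0.0780 CPM. Alternatives used DESeq2 1.42.0, limma 3.58.1 on log2 FPKM, other scalings, filters and prior counts. The fit was also run on simulated counts with the same spread for every gene and no cell type difference. That run says nothing of the p-values of genes whose spread differs.

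The imprinted genes and all lists were chosen with earlier results of these data known. Named in full are genes that passed the genotype test, were 2-fold apart in any pair of libraries or were among the 5 highest in FPKM, and of each further list up to 4 genes with the smallest p-values. Other genes of a member's cluster have values where they complete it. Gnal, Ppp1r9b and Mcts2 were named outside this rule, as a relative or neighbour of a gene that passed, after their values were seen. Pooled animals are not replicates, so p-values say nothing of the spread between animals. With 1 residual degree of freedom, the spread used for each gene in edgeR was borrowed in large part from other genes. The SE printed with edgeR values is the fitted log2 difference, without its sign, divided by the square root of the F statistic.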

Additional observations from a re-analysis of the deposited data

Results flagged for a closer look

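Trappc9 (ENSMUSG00000047921), a maternally expressed gene for a vesicle transport protein, had genotype ratios of opposite sign in the neuron types and did not pass the shared genotype test. It had 41.6 CPM in D2 Q175 and 38.0 CPM in D2 WT, with 36.6 CPM in D1 Q175 and 42.7 CPM in D1 WT. The log2 ratio of Q175 over WT was 0.13 (95% counting interval 0.03 to 0.23) in D2 neurons and -0.22 (-0.32 to -0.12) in D1 neurons, so the effect was 0.35 log2 units more positive in D2. Neither interval includes 0, but they cover counting error only, there was 1 library per group, and the difference was not tested.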

How the results depend on the processing

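Imprinted genes that passed the genotype test numbered 10, against 6 in DESeq2 (5 of the 10, and Meg3), 5 and 6 in limma on log2 FPKM with 0.1 and 1 added, 6 without the filter on low counts, and 0 without the cell type term in edgeR (4 at an unadjusted p under 0.05). Over all genes the calls were 2159 higher and 2192 lower in Q175, against 749 and 1239 in DESeq2, 1002 and 1180 without the filter, and 2 and 2 without the cell type term. They were 2841 and 1382 with library totals, 2518 and 1148 in limma with 0.1 added, and 2180 and 997 with 1 added. In limma with 0.1 added, the share called was lower among the imprinted genes than among all 15668 genes tested. It was near that of all genes with 1 added, and above it in DESeq2. Nnat, Peg10, Ppp1r9a and Gnas lost their call only without the cell type term. Imprinted genes with a cell type difference numbered 6, against 4 in DESeq2 (3 of the 6, and Meg3). They numbered 4 in limma with 0.1 added, 3 with 1 added and 3 without the filter. Cell type calls over all genes, 1052 higher and 1051 lower in D2, became 380 and 495 in DESeq2, 479 and 552 in limma with 1 added, 286 and 377 without the filter, and 642 higher in limma with 0.1 added. The number of imprinted genes 2-fold apart in D1 neurons, 1 at first, was 0 with library totals, in FPKM and at a CPM minimum of 20, and 2 at a minimum of 1. Between cell types in Q175 it was 3 at a minimum of 1. Differences of at least 0.5 between genotype effects numbered 2 with library totals, 2 in FPKM and 3 at a minimum of 1. Genotype differences that did not pass changed sign for Ndn (0.04), Sgce (0.01 with library totals, 0.05 in limma), Igf2r (0.01 and 0) and Trappc9 (0.04) under library totals and limma, for Mest (0.07) under library totals and for Blcap (-0.01) without the filter. Cell type differences changed sign for Airn (0.13 and 0.01) in limma, for Zim1 (0) with library totals, and for Trappc9 (-0.01 with library totals, -0.02 in limma). The cause was not tested. No paired analysis was possible because each group held 1 library and the labels carry no replicate numbers, and leaving out a library would leave no residual degree of freedom. Depth limits Dlk1, Magel2, Zim1, Airn and the 6 untested genes, which had few counts.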

Other observations

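Relatives of the imprinted genes that lie outside the imprinted clusters were also counted. Of 31 such paralogs, 29 were tested; 2 were higher and 7 lower in Q175 (31.0% called), beside 35.7% of the imprinted genes and 27.8% of all genes tested. Plag1, a zinc finger gene related to Plagl1, had 4.18 CPM in D2 Q175 and 10.5 CPM in D2 WT, with 3.66 CPM in D1 Q175 and 6.39 CPM in D1 WT. It fell by 1.08 ± 0.16 log2 units (adjusted p = 1.98e-05 in edgeR), while Plagl1 did not pass (0.13 ± 0.11, adjusted p = 0.388). Mkrn1, a makorin gene related to Mkrn3, fell by 0.48 ± 0.08 (adjusted p = 0.000166), and Nap1l1, related to Nap1l5, fell by 0.38 ± 0.08 (adjusted p = 0.00157). Copg1, related to Copg2, had 322 CPM in D2 Q175 and 417 CPM in D2 WT, with 339 CPM in D1 Q175 and 432 CPM in D1 WT, and fell by 0.36 ± 0.08 (adjusted p = 0.00236). For none of these pairs was the difference between the relatives tested.

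Mir3072, a microRNA gene model within the unmatched Mirg, was chosen after its values were seen. It had 60 counts in D2 Q175 and 51 in D2 WT, and 54 counts in D1 Q175 and 27 in D1 WT, and did not pass the genotype test (0.45 ± 0.29, adjusted p = 0.271 in edgeR).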
